A study of Mus musculus with 13 samples.

Results

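The enzymes that turn arachidonate into prostaglandins, thromboxane and leukotrienes were followed in mouse macrophages with and without the histone deacetylase HDAC3. The set holds 10 genes, chosen by name with earlier results of these data known: Ptgs1, Ptgs2, Ptges, Tbxas1, Hpgds, Hpgd, Alox5, Alox5ap, Ltc4s and Alox15. They have 16 probes among the 41073 non-control probes left after outlier spots were dropped. The array lists Hpgds under its older symbol Ptgds2. After the filter on dim probes 8 of the 10 genes were left among 20546 genes. Ptges and Alox15 were not tested, since neither probe was well above background on every array of any group. Ptgs1 was known from earlier results of these data to differ most clearly between the genotypes in its IL-4 response. Its values are therefore given as a description with no test.

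The cells were macrophages grown from bone marrow of male C57BL/6 mice aged 12 to 16 weeks, cultured for 6 days in 30% L929 conditioned medium. Control cells carried Hdac3 alleles with loxP sites around exons 4 to 7 and no Cre. HDAC3 knockout (KO) cells carried the same floxed alleles and Cre recombinase driven by the lysozyme M promoter, which is active in myeloid cells. Cells of both genotypes were kept for 24 hours with the cytokine IL-4 at 10 ng/mL or with its vehicle, which was 0.1% bovine serum albumin (BSA). RNA was measured on 13 one-colour Agilent arrays: control vehicle arrays 1 to 4, KO vehicle arrays 5 to 7, control IL-4 arrays 9, 10 and 12, and KO IL-4 arrays 13 to 15. Whether the arrays within a group represent different mice or repeat runs of one culture is not stated in the labels. Each p-value therefore reflects array-to-array spread alone, part of which may be technical.

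Eicosanoids are short-lived lipid signals made from arachidonate, a fatty acid that phospholipases release from membranes. The cyclooxygenases Ptgs1 and Ptgs2 convert it to prostaglandin H2, from which terminal synthases make prostaglandin E2 (Ptges), prostaglandin D2 (Hpgds) or thromboxane A2 (Tbxas1), and Hpgd inactivates prostaglandins. On the other branch Alox5, helped by the membrane protein Alox5ap, makes leukotriene A4, which Ltc4s joins to glutathione. IL-4 drives macrophages into the state called alternative activation.

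Because Ptgs1 and Tbxas1 were high where Hpgds and Hpgd were low, the 250 bases before the start of these 4 genes are shown for comparison. They are from the RefSeq promoter table (GRCm38.p6), which holds 8 of the 10 genes. Each is written on its gene's own strand, and capitals mark matches, on either strand, to the motifs searched. These were TTCNNNNGAA (the form bound by STAT6, the transcription factor that IL-4 activates), TTCNNNGAA (STAT), GAGGAA (PU.1, a macrophage factor), TGANTCA (AP-1), TTNNGCAA (C/EBP), GGGCGG (Sp1), GCGNGGGCG (EGR) and TATAAA (core promoter).
Ptgs1, chr2:36230176-36230425, + strand: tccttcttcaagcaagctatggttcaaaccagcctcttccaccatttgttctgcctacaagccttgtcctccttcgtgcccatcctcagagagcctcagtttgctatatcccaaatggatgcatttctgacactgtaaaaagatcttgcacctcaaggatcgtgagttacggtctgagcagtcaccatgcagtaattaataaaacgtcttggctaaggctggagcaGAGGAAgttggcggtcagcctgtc
Tbxas1, chr6:38918736-38918985, + strand: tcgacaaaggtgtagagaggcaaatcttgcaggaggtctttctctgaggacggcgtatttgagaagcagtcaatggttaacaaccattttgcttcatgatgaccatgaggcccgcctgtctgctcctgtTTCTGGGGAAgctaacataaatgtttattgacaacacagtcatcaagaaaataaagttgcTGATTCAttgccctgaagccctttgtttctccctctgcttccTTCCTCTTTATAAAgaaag
Hpgds, chr6:65144731-65144980, - strand: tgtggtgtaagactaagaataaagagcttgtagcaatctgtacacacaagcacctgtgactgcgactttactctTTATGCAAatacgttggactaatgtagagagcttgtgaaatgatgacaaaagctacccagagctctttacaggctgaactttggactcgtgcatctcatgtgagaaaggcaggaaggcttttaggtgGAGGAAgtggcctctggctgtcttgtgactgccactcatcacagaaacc
Hpgd, chr8:56294302-56294551, + strand: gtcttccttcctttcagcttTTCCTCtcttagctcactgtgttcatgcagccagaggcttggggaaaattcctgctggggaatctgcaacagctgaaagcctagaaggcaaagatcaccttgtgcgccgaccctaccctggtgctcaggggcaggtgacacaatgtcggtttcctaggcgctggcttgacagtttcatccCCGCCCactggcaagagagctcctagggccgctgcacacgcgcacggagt

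Each of the 4 windows held 1 match to GAGGAA, which 23.1% of the 27025 promoter windows in the table hold. In Ptgs1 it was the only match, 24 bases before the start. Of these 4 genes Tbxas1 alone held TTCNNNNGAA, 121 bases before the start (5.86% of all windows), and it also held TGANTCA (6.87%) and TATAAA (13%), the last on both strands in overlapping letters. Hpgds held TTNNGCAA (9.55%) and Hpgd held GGGCGG (32.9%). The remaining motifs, TTCNNNGAA (7.18% of all windows) and GCGNGGGCG (4.65%), matched none of the 4 windows. The Tbxas1 and Hpgds windows were 43.6% and 45.2% G and C, Ptgs1 48% and Hpgd 56.8%, against a median of 52% over all windows. A match is a description of the letters and not a measured binding site.

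Levels below are log2 of the background-corrected spot signal relative to the 75th percentile of that array, so 0 is the brightness of that percentile. They can be compared between groups for one probe, not between genes. A difference was called when the limma test across all genes gave a Benjamini-Hochberg adjusted p under 0.05. The share of spots well above background ran from 56.2% to 83.2% over the arrays, lowest on control vehicle array 4 and next lowest on KO IL-4 array 15. Each group sat at 1 position of the slides, and group and position cannot be told apart. Hdac3 was at 37.7% of the control level in KO vehicle arrays (limma adjusted p = 0.0029) and at 34.9% in KO IL-4 arrays (limma adjusted p = 0.0039). Where its probe lies relative to the deleted exons was not analysed here.

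Ptgs1, the cyclooxygenase usually described as constitutive, spanned the widest range of the set. In control vehicle cells its log2 levels were -2.36, -2.20, -1.95 and -2.50 on arrays 1 to 4, all well above background. KO vehicle arrays 5 to 7 had 1.23, 1.05 and 1.19. The groups lay far apart, and the control vehicle group was the lowest of the 4. Control IL-4 arrays 9, 10 and 12 had 2.21, 2.22 and 2.01, and KO IL-4 arrays 13 to 15 had 2.35, 2.92 and 2.79. No group overlapped another, and the order was control vehicle, KO vehicle, control IL-4, KO IL-4. In bulk RNA a change in the number of expressing cells and a change per cell cannot be told apart. The probe lies at chromosome 2, 36105892 to 36105951 (mm9, + strand).

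As log2 differences, Ptgs1 was 3.41 (SE 0.16) higher in KO than in control cells under vehicle, a 10.6-fold difference of the group means. Under IL-4 the difference between genotypes was 0.54 (SE 0.17), or 1.46-fold. IL-4 was accompanied by a difference of 4.40 (SE 0.16), 21.1-fold, in control cells and of 1.54 (SE 0.17), 2.90-fold, in KO cells. The IL-4 difference on the log2 scale was thus smaller by 2.86 (SE 0.23) in KO cells. Ptgs1 was the only 1 of the 20546 genes called for this difference between responses, 0.00487% of them, while 801 genes (3.9%) had an unadjusted limma p under 0.05. The gene was selected on this contrast, so the count is not support for it. Within slide 1, which holds 1 array of each group, the difference between responses was -3.44, and within slide 2 it was -2.54.

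**Figure D1:**
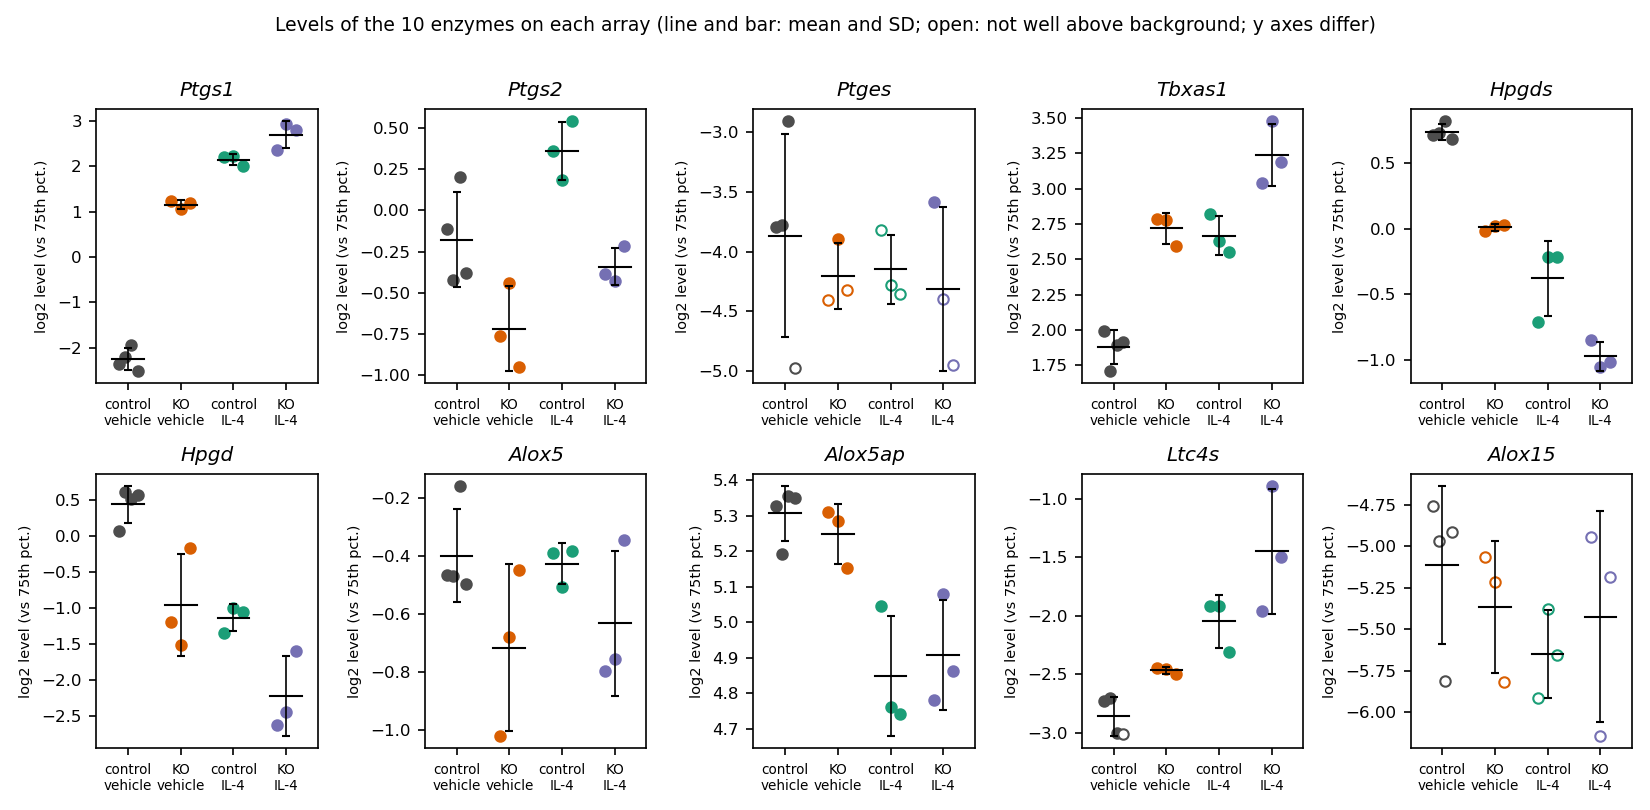
Log2 level of each of the 10 enzymes (y axis, relative to the 75th percentile of the array) on each array, by group (x axis), with the group mean and SD; open points were not well above background and the y axes differ. Ptgs1 and Tbxas1 were lowest and Hpgds and Hpgd highest in the control vehicle group, while every Alox15 point is open.

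The comparison of the Ptgs1 responses depended on the scale. On the linear scale, in percent of the 75th percentile, the mean was 21.2 ± 3.59 (SD, n = 4) in control vehicle, 223 ± 14 (n = 3) in KO vehicle, 444 ± 35.1 (n = 3) in control IL-4 and 654 ± 128 (n = 3) in KO IL-4 arrays. The increment with IL-4 was 423 (SE 20.4) in control and 432 (SE 74.6) in KO cells, a difference of 9.03 (SE 77.3). The sum of the separate increments for HDAC3 loss and IL-4 over the control vehicle level was 645, against the measured 654. The linear scale was examined after the data were seen, and the SE of the difference leaves room for increments that differ by a good part of either one.

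Tbxas1, thromboxane A synthase, took the same order of the lowest and highest groups. Its log2 levels were 1.99, 1.71, 1.89 and 1.92 in control vehicle arrays and 2.79, 2.78 and 2.59 in KO vehicle arrays. Control IL-4 arrays had 2.82, 2.63 and 2.55 and KO IL-4 arrays had 3.04, 3.48 and 3.19. The KO vehicle and control IL-4 groups overlapped, and the other groups stood apart. Tbxas1 rose with HDAC3 loss by 0.84 in vehicle (95% interval 0.57 to 1.11, limma adjusted p = 0.00193) and by 0.57 under IL-4 (0.28 to 0.86, limma adjusted p = 0.0342). It rose with IL-4 by 0.79 in control cells (0.52 to 1.06, limma adjusted p = 0.00212). In KO cells the IL-4 difference was 0.52 (0.23 to 0.80) and was not called (limma adjusted p = 0.0766). Its HDAC3 call under IL-4 was lost in 13 of 25 alternatives, among them leaving out control IL-4 array 10 or 12 or KO IL-4 array 14 or 15 (limma adjusted p = 0.115, 0.14, 0.105 and 0.0792), and also without control vehicle array 3 or 4 or KO vehicle array 5 or 6 (0.055 to 0.0574). With slide as a fixed block it was also lost (0.113). The difference with IL-4 in KO cells was called in 6 of them, among these without KO IL-4 array 13 (limma adjusted p = 0.0484). Its probe lies at chromosome 6, 39034356 to 39034415 (mm9, + strand), and a second probe beside it gave 0.90, 0.55, 0.88 and 0.53 for the same 4 differences. The third Tbxas1 probe, designed to another transcript, was well above background on 3 of 13 arrays, 2 of them control vehicle arrays. Its differences were -0.77, -0.38, -0.999 and -0.61, opposite in sign to those of the other probes, and its groups overlapped in every comparison.

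On the linear scale the Tbxas1 increment with IL-4 was 269 (SE 39.3) in control and 290 (SE 90) in KO cells, in percent of the 75th percentile. The sum of both separate increments gave 928.6 for KO IL-4 cells, against the measured 950. The log2 test of the difference between responses gave -0.27 (95% interval -0.66 to 0.12, limma adjusted p = 0.999). For Hpgds and Hpgd the linear increments were farther apart. Hpgds differed with IL-4 by -88.6 in control and -49.7 in KO cells, 39.0 (SE 9.34) apart, and the sum of its separate increments gave 12.1 against the measured 51.1. Hpgd differed by -91.1 and -33.5, 57.6 (SE 21.0) apart, and its sum was -34.9, below 0, against the measured 22.6.

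**Figure D2:**
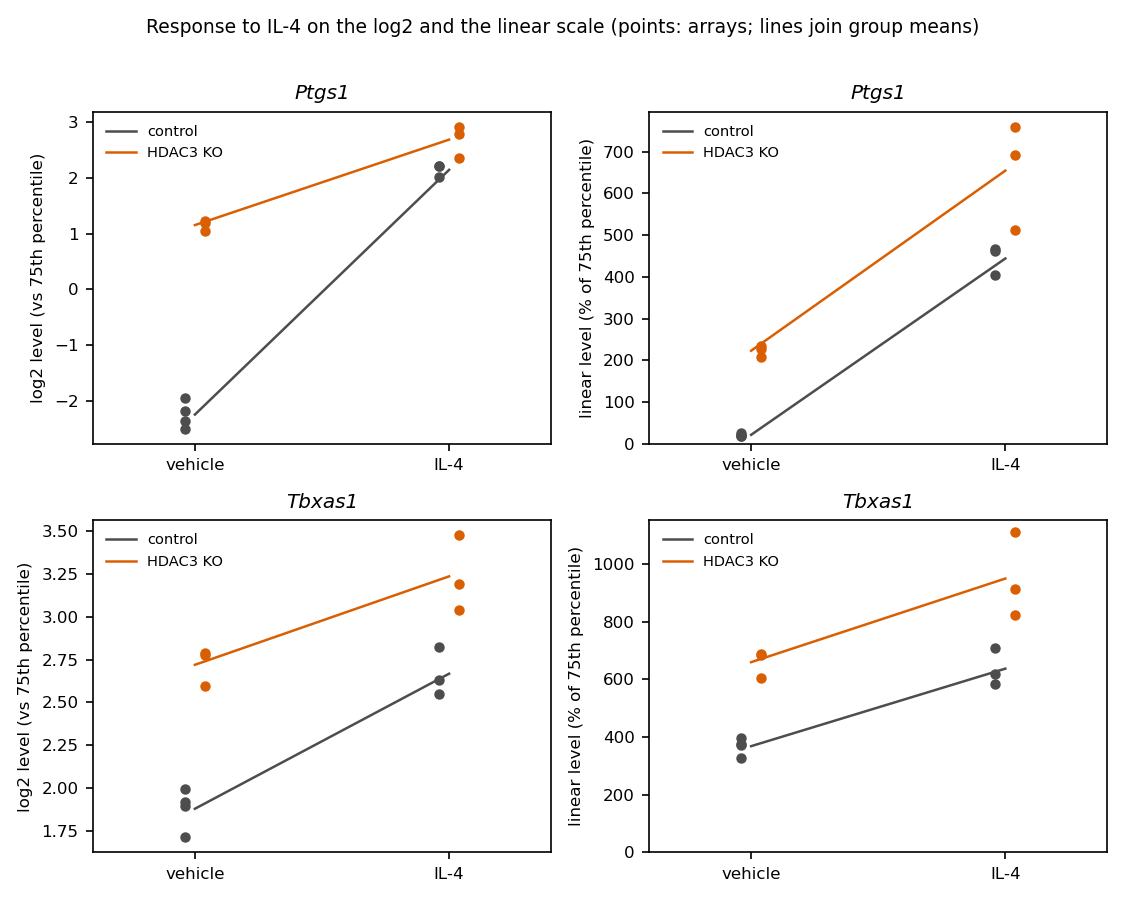
Ptgs1 and Tbxas1 on each array under vehicle and IL-4 (x axis), on the log2 scale (left) and the linear scale in percent of the 75th percentile (right), with lines joining group means of control and KO cells. For Ptgs1 the lines converge on the log2 scale and run side by side on the linear scale, with increments of 423 and 432.

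Hpgds, which makes prostaglandin D2, ran the opposite way. Control vehicle arrays had log2 levels of 0.71, 0.73, 0.82 and 0.68, and KO vehicle arrays -0.02, 0.02 and 0.03. Control IL-4 arrays had -0.71, -0.21 and -0.21, and KO IL-4 arrays -0.85, -1.05 and -1.01. No group overlapped another. Hpgds fell with HDAC3 loss by 0.72 in vehicle (95% interval -0.99 to -0.46, limma adjusted p = 0.00479) and by 0.59 under IL-4 (-0.88 to -0.31, limma adjusted p = 0.0265). It fell with IL-4 by 1.11 in control cells (limma adjusted p = 0.000192) and by 0.98 in KO cells (limma adjusted p = 0.00182), or 2.16-fold and 1.98-fold. The HDAC3 call under IL-4 was lost in 9 of 25 alternatives, including without control IL-4 array 10 or 12 (limma adjusted p = 0.113 and 0.121) or KO IL-4 array 14 or 15 (0.0904 and 0.0878), and with slide as a fixed block (0.103). Its 60-base probe is placed by the files across 3529 bases of chromosome 6, 65070081 to 65073609 (mm9, - strand).

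Hpgd, which inactivates prostaglandins, was likewise highest in control vehicle cells, with log2 levels of 0.07, 0.60, 0.51 and 0.57. KO vehicle arrays 5 to 7 had -1.19, -1.51 and -0.16, and control IL-4 arrays -1.34, -1.002 and -1.05. KO IL-4 arrays 13 to 15 had -2.62, -2.44 and -1.59. Array 7 stood above the other KO vehicle arrays, and array 15 above the other KO IL-4 arrays; both are on slide 3. Their Hdac3 levels were -3.46 and -4.02, inside and below the -3.67 to -3.12 of the other KO arrays. On the brighter Hpgd probe the groups did not overlap in any of the 4 comparisons. Hpgd fell by 1.39 with HDAC3 loss in vehicle (limma adjusted p = 0.0272) and by 1.57 with IL-4 in control cells (limma adjusted p = 0.0113). The differences under IL-4, -1.08 (-1.82 to -0.35, limma adjusted p = 0.128), and with IL-4 in KO cells, -1.26 (-2.003 to -0.53, limma adjusted p = 0.0943), were not called. The vehicle call was lost in 9 of 25 alternatives, including without control vehicle array 2, 3 or 4 (limma adjusted p = 0.0754, 0.0707 and 0.0723) or KO vehicle array 5 or 6 (0.141 and 0.148). The call for IL-4 in control cells was lost without control IL-4 array 9 (0.0599), and the HDAC3 difference under IL-4 was called without KO vehicle array 7 (0.048) and that with IL-4 in KO cells without KO IL-4 array 15 (0.0473). With slide as a fixed block both of these differences were called, at -1.24 and -1.26 (limma adjusted p = 0.0366 and 0.0312). The dimmer of its 2 probes had the same sign in all 4 comparisons.

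Since Tbxas1 and Hpgds use the same substrate, their signals were also set against each other within each array. Relative to control vehicle cells, the Tbxas1 to Hpgds ratio was 2.96-fold higher in KO vehicle, 3.74-fold higher in control IL-4 and 8.36-fold higher in KO IL-4 cells. The Ptgs1 to Ptgs2 ratio was 15.4-, 14.5- and 34.5-fold higher in the same groups. These ratios show unequal change of RNA signals and do not measure the lipids.

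Ptgs2, the inducible cyclooxygenase, did not follow Ptgs1. Its log2 levels were -0.11, -0.43, 0.20 and -0.38 in control vehicle and -0.76, -0.44 and -0.95 in KO vehicle arrays. Control IL-4 arrays had 0.36, 0.19 and 0.54 and KO IL-4 arrays -0.39, -0.43 and -0.21. KO groups lay below the control groups of the same treatment without overlap, though within slide 2 the vehicle difference was only -0.02. The differences were -0.54 in vehicle (95% interval -0.91 to -0.17, limma adjusted p = 0.117) and -0.71 under IL-4 (-1.10 to -0.31, limma adjusted p = 0.0588), and neither was called. Without control vehicle array 3, the highest of its group, the HDAC3 difference under IL-4 was called (limma adjusted p = 0.0352). The IL-4 differences were 0.54 in control (limma adjusted p = 0.105, and 0.0359 without that array) and 0.38 in KO cells (limma adjusted p = 0.433). This probe is printed 10 times on each array, with an SD between spots of 0.046 to 0.110, below the SD between arrays of a group (0.11 to 0.29). A second, dimmer Ptgs2 probe was well above background on 8 of 13 arrays, and its groups overlapped in every comparison. With HDAC3 loss it differed by -0.42 in vehicle and -1.04 under IL-4. With IL-4 it differed by 0.30 in control and -0.33 in KO cells, the last opposite in sign to the brighter probe. Ptges, the inducible prostaglandin E synthase, was well above background on 5 of 13 arrays, 3 of them control vehicle arrays, and on 0 control IL-4 arrays.

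**Figure D3:**
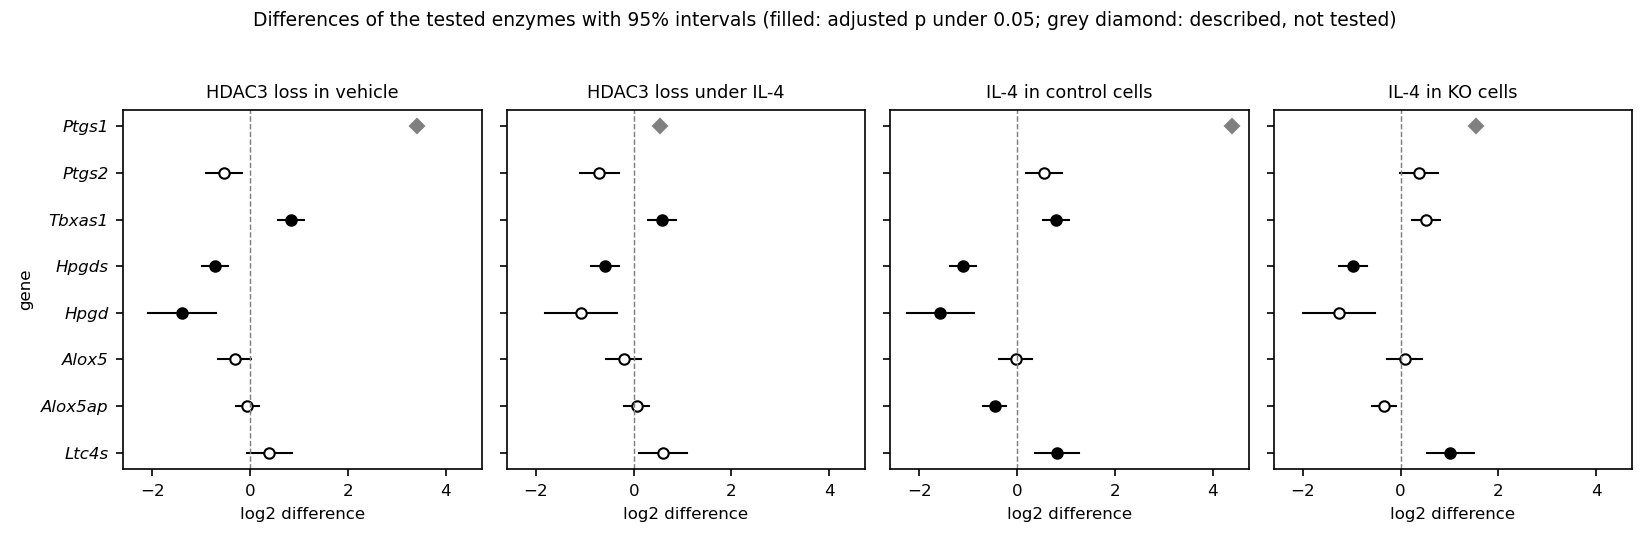
Log2 differences (x axis) of the 8 enzymes left after the filter in the 4 comparisons, with 95% intervals; filled circles were called and the grey diamond for Ptgs1 was not tested. Tbxas1 lies to the right and Hpgds and Hpgd to the left of 0 in every panel.

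Of the leukotriene enzymes, Alox5ap had log2 levels of 5.33, 5.19, 5.36 and 5.35 in control vehicle and 5.31, 5.28 and 5.15 in KO vehicle arrays. Control IL-4 arrays had 5.05, 4.76 and 4.74 and KO IL-4 arrays 4.78, 5.08 and 4.86. It fell by 0.46 with IL-4 in control cells (95% interval -0.69 to -0.22, limma adjusted p = 0.0277), and the difference in KO cells was -0.34 (limma adjusted p = 0.204). With HDAC3 loss it differed by -0.06 (-0.29 to 0.18) in vehicle and 0.06 (-0.19 to 0.31) under IL-4. The call was lost in 10 of 25 alternatives, including without control vehicle array 1, 3 or 4 (limma adjusted p = 0.0721, 0.0785 and 0.079) or control IL-4 array 10 or 12 (0.108 and 0.139) and with slide as a fixed block (0.0828).

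Ltc4s, leukotriene C4 synthase, was dim, with log2 levels from -3.01 to -2.70 in control vehicle arrays, 3 of 4 of them well above background. KO vehicle arrays had -2.45, -2.46 and -2.50, control IL-4 arrays -1.92, -1.92 and -2.31, and KO IL-4 arrays -1.96, -0.90 and -1.50. Vehicle and IL-4 groups did not overlap within either genotype. Ltc4s rose with IL-4 by 0.81 in control cells (95% interval 0.36 to 1.27, limma adjusted p = 0.0431) and by 1.02 in KO cells (0.53 to 1.505, limma adjusted p = 0.0368). These calls were lost in 16 and 15 of 24 alternatives. In control cells this held with slide as a fixed block (limma adjusted p = 0.0595) and without any 1 of arrays 1 to 7, 9, 10, 12 and 15 (0.0553 to 0.166), and in KO cells without any 1 of arrays 1 to 7, 9, 10, 14 and 15 (0.0513 to 0.143). The genotype differences of 0.39 without and 0.60 with IL-4 were not called (limma adjusted p = 0.483 and 0.212), the latter being called without KO IL-4 array 13 (0.0369).

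Alox5, the lipoxygenase that starts leukotriene synthesis, was not called in any comparison. Its differences were -0.32 (95% interval -0.66 to 0.02), -0.21 (-0.57 to 0.16), -0.03 (-0.37 to 0.31) and 0.08 (-0.28 to 0.45) for loss of HDAC3 without and with IL-4 and for IL-4 in control and KO cells. A second probe that overlaps the first by part of its length gave -0.72 for HDAC3 loss in vehicle with groups that did not overlap, so the probes disagreed in size. Alox15, a lipoxygenase known in resident peritoneal macrophages and in IL-4-treated human monocytes, was not well above background on any of the 13 arrays.

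Counted over the set, 1 of the 7 tested genes was called higher (Tbxas1) and 2 lower (Hpgds, Hpgd) for HDAC3 loss in vehicle, where 2.47% of all genes were called higher and 2.3% lower. Under IL-4 the counts were 1 (Tbxas1) and 1 (Hpgds), against 2.07% and 1.64%. For IL-4 in control cells they were 2 (Tbxas1, Ltc4s) and 3 (Hpgds, Hpgd, Alox5ap), against 2.81% and 2.9%, and in KO cells 1 (Ltc4s) and 1 (Hpgds), against 1.19% and 1.03%. The median log2 difference of the 7 genes was -0.32, -0.21, -0.03 and 0.08, against 0.02, -0.02, 0.01 and -0.04 over all genes. Groups did not overlap for 5, 4, 5 and 6 of the 7, where 17%, 17.9%, 16.8% and 18.3% of all genes had groups that did not overlap. Comparisons share arrays, so their counts are not independent. The genes were chosen with earlier results of these data known. An excess over the shares of all genes may be partly built in, and the counts are only a description. In the test of the difference between responses 0 of the 7 were called and 0 had an unadjusted limma p under 0.05.

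Over the 13 arrays, Ptgs1 had Pearson correlations of 0.93 with Tbxas1, -0.94 with Hpgds and -0.88 with Hpgd, and of 0.06 with Ptgs2. The arrays share the 4 groups, so these values mostly restate the group means. Among 14955 genes the closest patterns to Ptgs1 were those of Clec7a (r = 0.985), which encodes the beta-glucan receptor Dectin-1, and the transcription factor Egr2 (r = 0.981), with Tnfrsf21 and Vwf also among them (0.973 and 0.971). Clec7a means were 4.32, 5.70, 6.35 and 6.70 in control vehicle, KO vehicle, control IL-4 and KO IL-4 cells, and Egr2 means were 4.04, 6.01, 6.77 and 6.94. The closest to Tbxas1 were Man2a2, Tnfrsf1b and Fcgr3 (r = 0.994, 0.984 and 0.984), and to Hpgds they were Adra1a, Ncapg2 and Slfn9 (0.987, 0.986 and 0.976). For Hpgd they were Lsp1, Cd300e and Stap1 (0.986, 0.984 and 0.981).

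The genes around these enzymes were taken from 7 lists of 109 genes for arachidonate supply and release, other enzymes, transport and receptors, of which 91 were tested. With HDAC3 loss 7 were called higher and 6 lower in vehicle, where 2.47% and 2.3% of all genes were, and 5 and 5 in IL-4 (2.07% and 1.64% of all genes). The counts were 11 and 5 for IL-4 in control (2.81% and 2.9%) and 7 and 4 in KO cells (1.19% and 1.03%). For the difference between responses 0 were called and 5 had an unadjusted limma p under 0.05, against 3.9% of all genes. Of 26 genes called in at least 1 of these 4 comparisons, 2 were called higher in all 4, and both encode prostanoid receptors. The comparisons share arrays, and the share of all genes called higher in all 4 was not counted. The number is therefore a description and not a result about receptors. The 7 lists too were chosen with earlier results of these data known, so their counts against all genes are only a description.

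Among 13 tested receptors these were Ptger2, the prostaglandin E2 receptor EP2, and Ptgir, the prostacyclin receptor. Ptger2 log2 levels were 1.25, 0.63, 0.81 and 1.08 in control vehicle, 2.94, 2.90 and 2.67 in KO vehicle, 2.68, 2.41 and 2.72 in control IL-4 and 3.78, 3.96 and 3.61 in KO IL-4 arrays. Both KO groups lay above the control group of the same treatment. Ptger2 rose with HDAC3 loss by 1.89 in vehicle and by 1.18 in IL-4 (limma adjusted p = 6.8e-05 and 0.00253), and by 1.66 and 0.95 with IL-4 in control and KO cells (limma adjusted p = 6.2e-05 and 0.0113). The last call was lost without KO vehicle array 7 or KO IL-4 array 14 (0.0676 and 0.0524). Ptgir rose by 1.56, 1.29, 1.12 and 0.86 in the same comparisons, on its brighter probe. A dimmer Ptgir probe was well above background on 9 arrays. Its means were -2.91, -2.80, -2.36 and -2.73 in control vehicle, KO vehicle, control IL-4 and KO IL-4 cells. Under IL-4 it was thus lower in KO cells, opposite in sign to the brighter probe. Averaging both probes ended all 4 calls (limma adjusted p from 0.0534 to 0.495). The Ptgir call for IL-4 in KO cells was lost in 8 of 25 alternatives. Fpr2, a receptor for formyl peptides and lipoxin A4, fell with IL-4 by 3.41 in control and 2.30 in KO cells. The thromboxane receptor Tbxa2r was not called, with differences from -0.40 to 0.03.

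**Figure D4:**
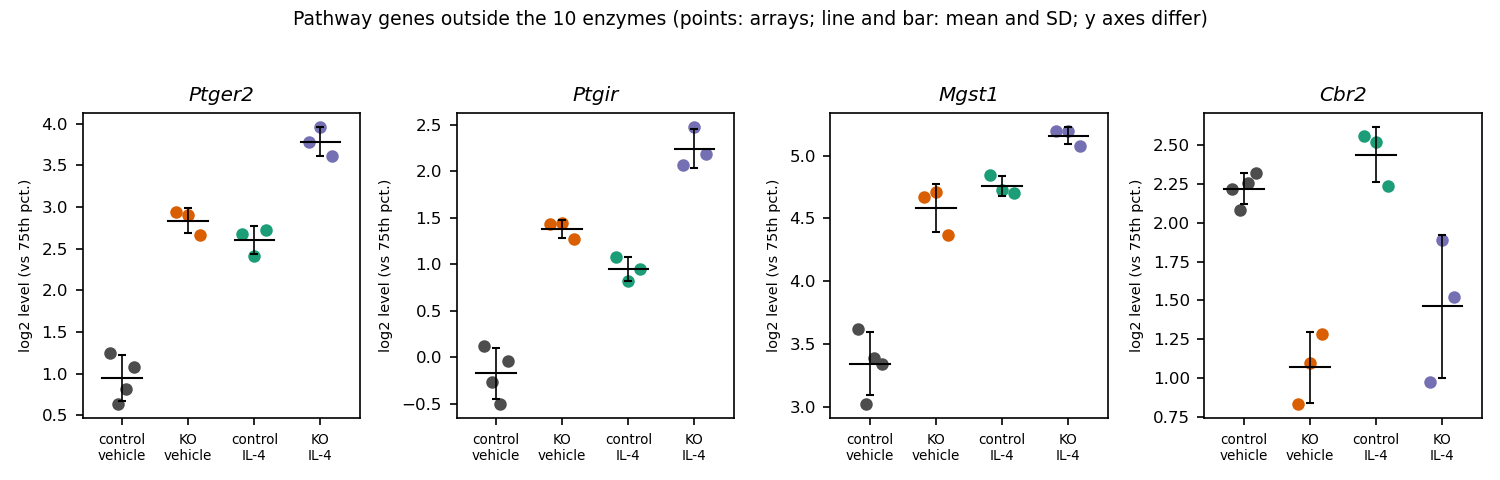
Log2 levels (y axis, relative to the 75th percentile of the array) of the receptors Ptger2 and Ptgir and the enzymes Mgst1 and Cbr2 on each array, by group (x axis), with group mean and SD; the y axes differ. Ptger2 and Ptgir were highest in KO IL-4 cells, and Cbr2 was lower in both KO groups than in the controls.

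Of 18 tested genes for arachidonate release, 1 was called higher and 4 lower with HDAC3 loss in vehicle, where 2.47% and 2.3% of all genes were. The phospholipases C Plcb2 and Plcg2 fell by 1.33 and 0.62, Plaat3 (listed as Pla2g16) by 0.61 and the lipase Abhd12 by 0.41, and the lysosomal phospholipase Pla2g15 rose by 0.55. Under IL-4, Pla2g7, which breaks down platelet-activating factor, was 1.16 higher in KO cells (limma adjusted p = 0.00347) and Plaat3 and Plcb2 were 1.02 and 0.85 lower. With IL-4 in control cells Pla2g7 fell by 0.74 and Plaat3 rose by 0.60. The Plcb2 call under IL-4 was lost in 15 of 24 alternatives, and the Pla2g7 and Plaat3 calls for IL-4 in 6 and 16 of 25. Pla2g15 rose with IL-4 by 0.97 and 0.66 in control and KO cells. Pla2g5, a secreted phospholipase, rose by 2.53 in control cells, from a vehicle group in which it was well above background on 2 of 4 arrays. That difference ran from 0.99, with normexp background, to 2.94 over the alternatives. In KO cells Pla2g5 was at least 2.73-fold higher with IL-4, since it was well above background on 0 KO vehicle arrays, and that call was lost in 10 of 24 alternatives. For arachidonate supply, Mboat7 and Elovl5 rose by 0.40 and 0.41 and Acsl3 fell by 0.49 with HDAC3 loss in vehicle. With IL-4 in control cells Agpat3 and Lpcat1 rose by 0.46 and 0.42, and Acsl3 and Lpcat2 fell by 1.19 and 0.86. In KO cells Agpat3 rose by 0.57 and Acsl3 fell by 0.86. The vehicle calls of Plaat3, Abhd12, Acsl3 and Elovl5 were lost in 14, 14, 14 and 15 of 25 alternatives, and those of Mboat7 and Plcg2 in 9 and 8.

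Of 16 other lipoxygenase and leukotriene genes, Mgst1, a microsomal glutathione transferase, rose by 1.24 with HDAC3 loss in vehicle and by 1.41 with IL-4 in control cells (limma adjusted p = 0.000377 and 7.8e-05), in every alternative. Gpx4 was 0.58 higher and Aloxe3 0.87 lower in KO cells under IL-4. Of 11 other prostanoid genes, the carbonyl reductase Cbr2 fell with HDAC3 loss by 1.15 in vehicle and 0.98 under IL-4, and Gstm2 rose by 1.73 and 2.06. The Cbr2 call under IL-4 was lost in 6 of 25 alternatives, including without control IL-4 array 9 or 10 or KO IL-4 array 15 (limma adjusted p = 0.0772, 0.0817 and 0.0562). The Gstm2 calls were lost in 11 (vehicle) and 5 (IL-4), the Aloxe3 call in 13 and the Gpx4 call in 9 of 25 alternatives. Gstm2 belongs to a family of close copies, so its probe may also read relatives. Of 9 transport genes, the prostaglandin transporter Slco2a1 rose by 1.42 with IL-4 in control cells and was 1.35 lower in KO cells under IL-4. Slco2a1 was dim, well above background on 2 arrays each of the control vehicle and KO IL-4 groups. In vehicle it was 0.96 higher in KO cells, which was not called (limma adjusted p = 0.0824). Its difference between responses was -2.31 and was not called (limma adjusted p = 0.292). The exporter Abcc2 rose with IL-4 by 0.94 and 1.09, and Abcc3 fell by 0.62 and 0.48, in control and KO cells. In KO cells the Abcc3 call (limma adjusted p = 0.0494) was lost in 18 of 25 alternatives and the Abcc2 call in 6 of 24, and in control cells the Abcc2 call was lost in 4 of 24. The Slco2a1 call under IL-4 was lost in 7 of 24. Of 9 epoxygenase genes, the epoxide hydrolase Ephx1 rose with IL-4 by 1.21 in control and 1.32 in KO cells, and Cyp2s1 was at least 2.47-fold lower with IL-4 in KO cells, a call lost in 5 of 24 alternatives.

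Markers of other cells known to make these enzymes were read on the same arrays. All 8 macrophage markers were well above background on every array, with a summed level of 499 to 556 times the 75th percentile in control vehicle, 475 to 508 in KO vehicle, 399 to 424 in control IL-4 and 438 to 477 in KO IL-4 arrays. Of these, 2 were called higher (Itgam by 1.44, Csf1r by 0.42) and 1 lower (Fcgr1) with HDAC3 loss in vehicle, against 2.47% and 2.3% of all genes. Under IL-4, 3 were called higher and 1 lower, against 2.07% and 1.64%. With IL-4 4 were called lower in control cells (Cd14 with a difference of -2.16, Mertk, Fcgr1, Lyz2) and 2 in KO cells, where 2.9% and 1.03% of all genes were. Of 8 mast cell markers 0 were well above background on all arrays, only 2 passed the filter (Cpa3 and Tpsb2) and 0 of these 2 were called. Their summed level was 0.458 to 0.803 times the 75th percentile in control vehicle and 0.562 to 0.815 in KO vehicle arrays, 0.518 to 0.792 in control IL-4 and 0.548 to 0.614 in KO IL-4 arrays. Of 8 platelet markers 5 were well above background on all arrays, among them Pf4 and Itgb3 with mean log2 levels of 4.42 to 5.11 and 4.06 to 4.34 over the groups. Gp9 was well above background on 0 of 13 arrays, and 0 of the 7 tested were called. Their sums were 51.2 to 60.7, 51.9 to 71.8, 44.1 to 50.3 and 45.0 to 55.9 in the same order of groups. Of 6 eosinophil markers, Siglecf rose by 5.36 and Ccr3 fell by 0.91 with HDAC3 loss in vehicle, while Epx differed by 0.02 (limma adjusted p = 0.998). Siglecf was also 4.88 higher in KO cells under IL-4. The eosinophil sums were 38.5 to 44.2, 29.2 to 41.5, 27.8 to 36.6 and 29.6 to 40.2. They came mostly from Ccr3 (mean log2 levels 5.32, 4.41, 4.91 and 4.54) and, in KO arrays, also from Siglecf (3.64 and 3.40). Changes of these markers in opposite directions offset each other in the sums. Epx, Il5ra, Prg2 and Prg3 were dim and were not called. Of 8 neutrophil markers 5 were well above background on all arrays, and 0 of the 6 tested were called. Among them S100a8 and S100a9 had mean log2 levels of 0.51 to 0.70 and 1.28 to 1.76 over the groups. The neutrophil sums were 5.14 to 10.8, 4.76 to 8.43, 5.37 to 12.45 and 5.58 to 12.1. Lists for dendritic cells, resident peritoneal macrophages, stroma, T cells and B cells are not shown. The part of these cell types in the levels of Hpgds, Ltc4s, Tbxas1, Alox5 and Alox5ap was not tested.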

How the data were processed

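Deposited scanner files of 13 arrays hold spot intensity on a linear scale, extracted with Agilent Feature Extraction 10.5.1.1 per the file headers; the submitters' processing notes name version 9.53 and limma. gProcessedSignal is background-corrected, per the file headers, and probe coordinates are mm9. The authors' deposited value table, also intensity with column medians of 181 or 181.5, served as an alternative. Its normalization is not given in the sources used here, so its scale beyond these medians is unknown.

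Control and outlier spots were then dropped (101 probes lost), spots of a probe averaged, and each array's 75th percentile subtracted from log2 signals. A probe stayed if some group had it well above background throughout (29059 probes), and each gene took its brightest probe. Group means were fitted with limma 3.58.1 (R 4.3.3; two-sided lmFit and eBayes fit of the 13 arrays together, Benjamini-Hochberg over 20546 genes, calls at adjusted p under 0.05), and the fit was tested on simulated data. Where no array of a group had a gene well above background, "at least" marks a bound, computed with each dim array raised to its lowest well-above-background level where that was higher. The number of arrays limits precision.

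The members and lists were chosen with earlier results of these data known. Named genes are the members, list genes called in a comparison, markers, and the 5 (Ptgs1) or 3 (other members) genes of highest Pearson correlation. One of these genes is not reported here. Tbxa2r was named after its values were seen. Alternatives were other background corrections and scalings, probe filters and rules, variance models, slide as a block, only the compared groups, and leaving out arrays; the linear scale and leaving out the 2 arrays of lowest share of spots above background were chosen after seeing the data.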

Additional observations from a re-analysis of the deposited data

Results flagged for a closer look

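On the log2 scale the IL-4 difference of Ptgs1 was -2.86 in KO cells relative to control cells, the difference between genotypes for which the gene was selected, and on the linear scale it was 9.03 (SE 77.3, in percent of the 75th percentile). In 3 genes 1 of the 4 control vehicle arrays lay apart from the other three by Dixon's criterion: Hpgd was at 0.066 on array 1, Alox5 at -0.16 on array 3 and Alox5ap at 5.19 on array 2. Each gene marked a different array. The set has 10 control vehicle groups, 1 for each gene, and chance alone marks about 1 group in 20. Whether 3 marks are more than that was not tested. Groups of 3 arrays also held single arrays apart. In control IL-4, Hpgds was at -0.71 on array 9 against -0.21 and -0.21, and Ltc4s at -2.31 on array 12 against -1.92 and -1.92.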

How the results depend on the processing

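In vehicle-treated cells (HDAC3 loss) and in control cells (IL-4), Tbxas1 and Hpgds kept their calls in all 25 alternatives, and so did Hpgds for IL-4 in KO cells. Ptgs1 differences ran from 2.57 to 3.51, 0.40 to 0.71, 3.45 to 4.50 and 1.38 to 1.71, in the order of the report; the 2.57 and 3.45 came from normexp background, as did the -2.08 for the difference between responses (-2.98 to -2.08). On the linear scale that difference was 9.03 (SE 77.3), so its sign there is not determined.

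Counts of genes other than Ptgs1 called moved as follows. For HDAC3 loss in vehicle 1 was called lower (2 in the report) with no filter, the mean over probes, only the compared groups and without the 2 arrays. For HDAC3 loss under IL-4, 0 higher and 0 lower were called with median scaling, no filter, only the compared groups and without the 2 arrays, 0 higher with slide as a fixed block, where the 1 lower was Hpgd in place of Hpgds, and 2 lower with normexp background, probes above background on all arrays, and trend and robust variance. For IL-4 in control cells 1 was called higher (2 in the report) with normexp background, median scaling, no filter, probes above background on all arrays, slide as a fixed block and without the 2 arrays. Of the genes called lower there, Alox5ap lost its call with median scaling, no filter, only the compared groups, slide as a fixed block and without the 2 arrays. For IL-4 in KO cells 2 higher and 2 lower were called with quantile normalization, normexp background, the authors' values, and trend and robust variance, 2 lower with slide as a fixed block, and 0 higher with median scaling, no filter, only the compared groups and without the 2 arrays. Leaving out 1 array gave 1 to 2 lower for HDAC3 loss in vehicle, 0 to 2 higher and 0 to 2 lower under IL-4, 1 to 2 higher and 2 to 3 lower for IL-4 in control cells, and 0 to 2 higher and 1 to 2 lower in KO cells. The cause was not tested.

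Over all genes, leaving out 1 array moved the calls for HDAC3 loss in vehicle from 507 higher and 473 lower to 239 to 584 and 209 to 513. Fitting only the compared groups left 55 higher and 49 lower for HDAC3 loss under IL-4 (426 and 337) and 87 and 34 for IL-4 in KO cells (244 and 212), with fewer arrays to estimate the spread. The labels give the groups no shared replicate numbers. Slides hold arrays of several groups, so the paired analysis took slide as a block. Signal over background limits Ptges, Alox15 and Ltc4s.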
